A study of Mus musculus with 6 samples.

Results

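Guanylate-binding proteins and immunity-related GTPases are 2 families of interferon-inducible GTPases that defend mouse cells against intracellular microbes. The 6 genes described here are Gbp2, Gbp3 and Gbp6 of the first family, Irgm1 and Igtp of the second, and Irf1. Irf1 encodes a transcription factor that interferon gamma induces and that in turn activates many genes of both families. The 6 genes are read by 8 probe sets out of 34945 with a single gene, and they are 6 of 18193 genes measured. They were chosen with the knockout and wild-type values of these arrays in view, Gbp2 having stood among the higher genes of knockout cells. Their own differences between the genotypes are therefore given as a description, with no test.

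RNA was taken from Flk1+ cells of day 4 embryoid bodies, the culture counterpart of the haemangioblast, which is a precursor of blood and endothelium. The embryoid bodies were grown without leukaemia inhibitory factor from mouse embryonic stem (ES) cells that were Ldb1+/+ (wild type) or Ldb1-/- (knockout). LDB1 is an adaptor protein that links LIM-domain proteins and transcription factors. No agent of the interferon pathway is named in the labels, and the strain of the ES cells and the number of clones are not given in the sources used here. Each genotype has 3 biological replicates, 1 array each, with values as log2 expression levels. The sorted cells read the Flk1 mesoderm markers: all 8 listed ones, Kdr, Tal1 and Pdgfra among them, had means above the array-wide median (5.74).

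Interferons bind receptors that activate JAK kinases and STAT transcription factors. Interferon gamma acts through STAT dimers on the gamma-activated site (GAS). Type I interferons act through a complex with IRF9 on the interferon-stimulated response element (ISRE), which IRF1 also binds. Guanylate-binding proteins coat the vacuoles of microbes and their membranes, and IRGM-type GTPases, to which Irgm1 and Igtp belong, hold the other GTPases of their family inactive on the cell's own membranes. Pluripotent cells are known to respond weakly to interferon.

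The promoters of these genes carry the motifs through which interferon acts, so they are shown here before the levels. RefSeq promoter windows on GRCm38.p6, of 250 bases before and 50 after the annotated start, were found for 5 of the 6 genes. For Gbp6 none is shown. Both strands were searched for an ISRE core, GAAANNGAAA, and for the GAS core, TTCNNNGAA. The stretches below run 5′ to 3′ on the gene's strand and stop before the gene's first base, and capitals mark the motif matches. Gbp2b and Irgm2 are shown beside them, the first as the neighbour of Gbp2 with the most similar values and the second as the neighbour of Igtp. Positions of matches are counted from the annotated start of the window. In Gbp2b and Gbp3 the gene's first base lies before that start, so their stretches end earlier and are shorter.
Gbp2, chr3:142620513-142620662, plus strand: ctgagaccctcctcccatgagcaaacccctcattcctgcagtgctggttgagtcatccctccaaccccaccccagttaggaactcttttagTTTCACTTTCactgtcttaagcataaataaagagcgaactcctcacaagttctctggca
Gbp2b, chr3:142594697-142594815, plus strand: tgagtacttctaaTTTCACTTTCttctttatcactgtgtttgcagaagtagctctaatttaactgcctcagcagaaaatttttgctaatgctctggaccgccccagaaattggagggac
Gbp3, chr3:142559894-142560015, plus strand: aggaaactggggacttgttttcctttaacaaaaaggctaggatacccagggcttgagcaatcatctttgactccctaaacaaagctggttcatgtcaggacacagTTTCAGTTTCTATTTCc
Irgm1, chr11:48871421-48871570, minus strand: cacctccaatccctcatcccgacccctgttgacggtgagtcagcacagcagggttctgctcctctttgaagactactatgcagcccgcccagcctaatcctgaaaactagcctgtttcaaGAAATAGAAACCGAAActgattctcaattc
Igtp, chr11:58199406-58199555, plus strand: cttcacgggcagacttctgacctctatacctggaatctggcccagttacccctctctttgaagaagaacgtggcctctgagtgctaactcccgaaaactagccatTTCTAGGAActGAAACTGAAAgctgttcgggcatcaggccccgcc
Irgm2, chr11:58214827-58214976, plus strand: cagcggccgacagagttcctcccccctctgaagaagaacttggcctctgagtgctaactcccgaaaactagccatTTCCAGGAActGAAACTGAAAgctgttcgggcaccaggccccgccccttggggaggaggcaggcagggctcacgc
Irf1, chr11:53769864-53770013, plus strand: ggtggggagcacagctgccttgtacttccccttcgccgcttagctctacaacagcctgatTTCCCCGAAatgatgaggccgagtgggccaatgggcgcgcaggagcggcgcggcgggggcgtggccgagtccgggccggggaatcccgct

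The ISRE core lay in the windows of 4 of the 5 genes, namely Gbp2, Gbp3, Irgm1 and Igtp. A window with it was found for 3.99% of all 27025 genes listed. In Gbp2 it spanned bases -59 to -50 from the annotated start. Gbp3 and Irgm1 each had 2 matches that overlap. Irf1 had no ISRE core in its windows and held the GAS core at -90 to -82, which 9.55% of genes hold. Igtp held both, with a GAS core at -45 to -37 and an ISRE core at -34 to -25. The Igtp and Irgm2 stretches were close copies, sharing a run of 38 bases and 85.8% of 120 aligned bases, with the same pair of motifs. Gbp2 and Gbp2b shared the same 10 letters of the ISRE core, at -137 to -128 in Gbp2b, but 45.8% of 72 aligned bases. These matches describe letters and do not show that a factor was bound.

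**Figure D1:**
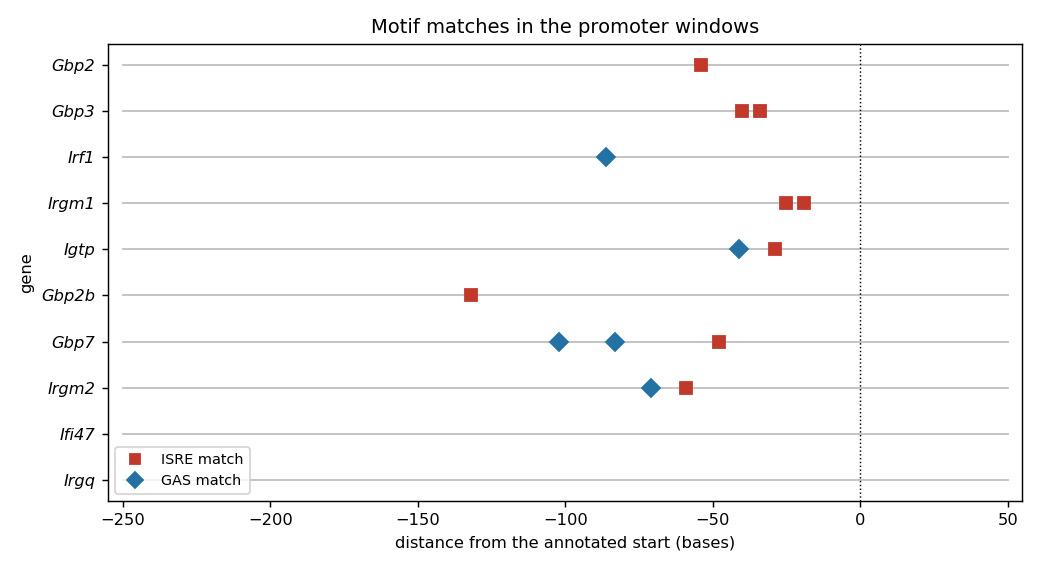
Positions of ISRE (squares) and GAS (diamonds) core matches in the first promoter window of each measured gene of both GTPase families and of Irf1, as the distance of the match's centre from the annotated start in bases. Each grey line is a window from 250 bases before to 50 after the start. The matches of Gbp2, Gbp3, Irf1, Irgm1 and Igtp all lie between base -90 and the start.

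Facts of the whole series bear on the levels. The arrays of replicate 3 differed from the others in their controls, the 5′ control of Gapdh reading 12.93 in both against 10.19 to 11.11 elsewhere, and the upper quartile of wild-type replicate 3 was 7.92 against 8.15 to 8.27 in the other arrays. Arrays of the same replicate number deviated together from their genotype means, with correlations of 0.699, 0.354 and 0.448 across probe sets for numbers 1, 2 and 3. Differences are therefore also given by number. Ldb1 itself read 7.80 ± 0.50 (SD, n = 3) against 7.37 ± 0.83 in the knockout (limma, adjusted p = 1.00, and 0.481 with the replicate number as a block). Since the deleted segment is not given in the sources used here, its probe set may lie outside it and leave the genotype unchecked.

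Gbp2 read higher in every knockout array than in any wild-type array, and by the widest margin of the 6 genes. Its brighter probe set read 7.54, 7.21 and 5.96 in wild-type replicates 1, 2 and 3, and 9.19, 8.30 and 7.85 in knockout replicates 1, 2 and 3. In both genotypes replicate 1 was highest and replicate 3 lowest. The means were 6.90 ± 0.83 and 8.45 ± 0.68 (SD, n = 3), a difference of 1.55 on the log2 scale or 2.92-fold. By number the differences were 1.65, 1.09 and 1.89. The low reading of wild-type replicate 3 carried part of the size, and without that array the difference was 1.08.

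The second Gbp2 probe set gave much the same picture. It read 6.53, 6.68 and 4.78 in wild-type arrays and 7.96, 7.49 and 7.02 in knockout arrays, again with no overlap. The difference was 1.49, or 2.81-fold, and 1.43, 0.81 and 2.24 by number. The brighter probe set is of a class whose probes can bind several transcripts, the second is not, and the difference was of like size in both. Without both arrays of number 3 the brighter probe set differed by 1.37.

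Gbp3, which lies beside Gbp2 and Gbp2b in a cluster on chromosome 3, was higher in some knockout arrays. It read 6.37, 6.45 and 6.32 in wild-type arrays and 7.60, 6.75 and 6.26 in knockout arrays. Wild-type arrays were nearly level, and knockout replicate 1 stood above the rest while knockout replicate 3 was below all wild-type arrays. The difference was 0.49 (means 6.38 ± 0.06 and 6.87 ± 0.68; SD, n = 3), smaller than the spread of the knockout arrays. Without knockout replicate 1 it was 0.12, without knockout replicate 3 it was 0.79, and without both arrays of number 3 it was 0.77.

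Gbp6, on chromosome 5, was the 1 gene of the 6 with a mean below the median level. Its brighter probe set read 4.65, 4.79 and 4.76 in wild-type arrays and 4.97, 5.81 and 4.37 in knockout arrays. Its second probe set read 3.76, 3.91 and 3.46 and then 3.90, 4.60 and 3.74, where the lower quartiles of the arrays lay between 4.22 and 4.37. In both probe sets knockout replicate 2 was highest and the groups overlapped. The difference of the brighter one was 0.31, or -0.06 without knockout replicate 2 and 0.67 without both arrays of number 3.

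**Figure D2:**
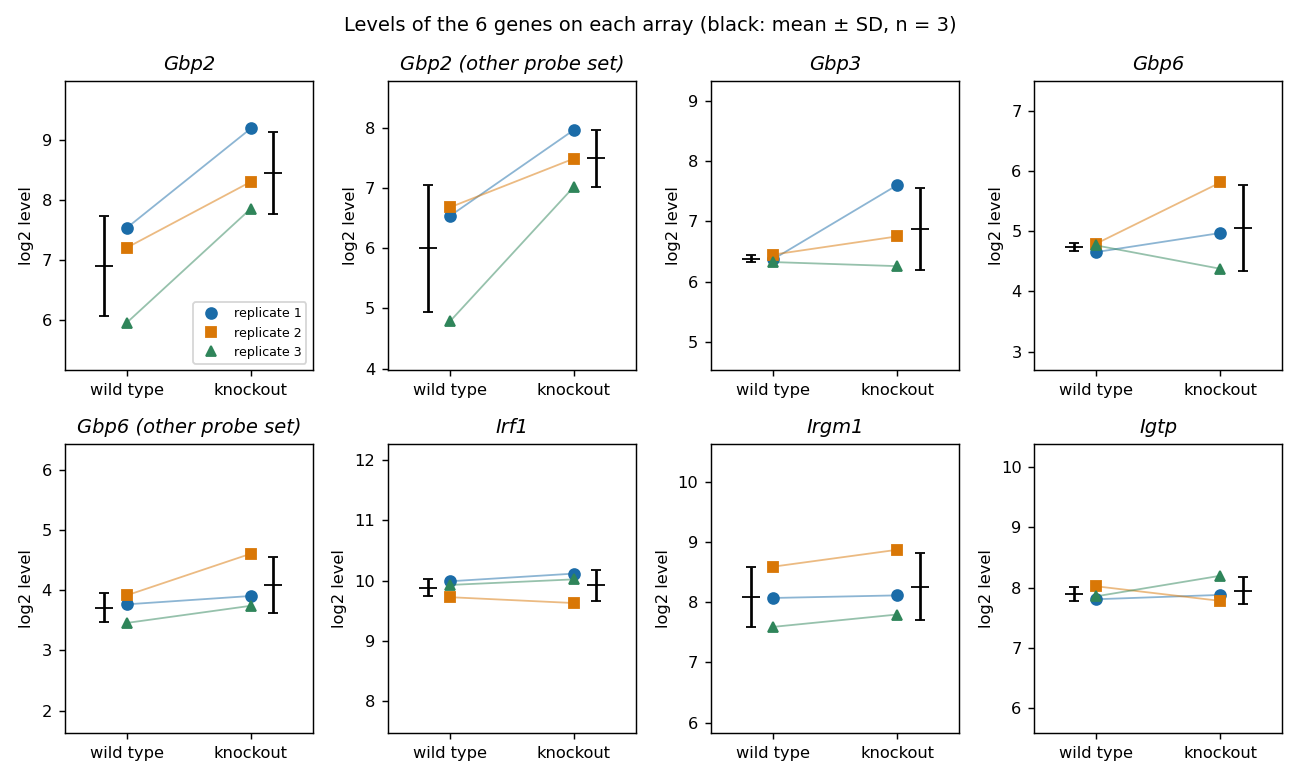
Log2 level of each probe set of the 6 genes in wild-type and knockout arrays, with arrays of the same replicate number joined. Black marks give the mean and SD of 3 arrays, and every panel spans the same number of log2 units. The 3 knockout points of both Gbp2 panels lie above the 3 wild-type points, and in the other panels the groups overlap.

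Irgm1 and Igtp, the regulatory GTPases, also had small differences. Irgm1 read 8.07, 8.59 and 7.59 in wild-type arrays and 8.11, 8.87 and 7.80 in knockout arrays. Its values followed the replicate number, with replicate 2 highest and replicate 3 lowest in both genotypes. The differences by number were all above 0, at 0.04, 0.28 and 0.21, with a mean of 0.18. That mean was below the SDs within the genotypes, 0.50 and 0.55, and above the SD of the 3 differences by number, 0.12. Igtp read 7.81, 8.02 and 7.86 in wild-type arrays and 7.88, 7.78 and 8.20 in knockout arrays. Its difference of 0.06 was 0.07, -0.24 and 0.34 by number, with an SD of 0.29.

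Irf1, the transcription factor of the group, differed by less than the spread between replicates. It read 9.99, 9.73 and 9.93 in wild-type arrays and 10.12, 9.63 and 10.02 in knockout arrays, with replicate 2 lowest in both. The means were 9.88 ± 0.14 and 9.92 ± 0.26 (SD, n = 3), a difference of 0.04. Irf1, Irgm1 and Igtp all lie on chromosome 11, where genes above the median level had a median difference of -0.23 and 13.8% of 949 were higher in knockout arrays. The part of that shift in these 3 values was not tested.

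Among the 6 genes, Gbp2 alone had groups that did not overlap with the knockout higher, which held for 3.45% of all genes. Gbp2 and Irgm1 read higher in the knockout array at all 3 numbers, as did 13.5% of all genes. These counts come from the contrast used in choosing the genes and are given as a description.

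**Figure D3:**
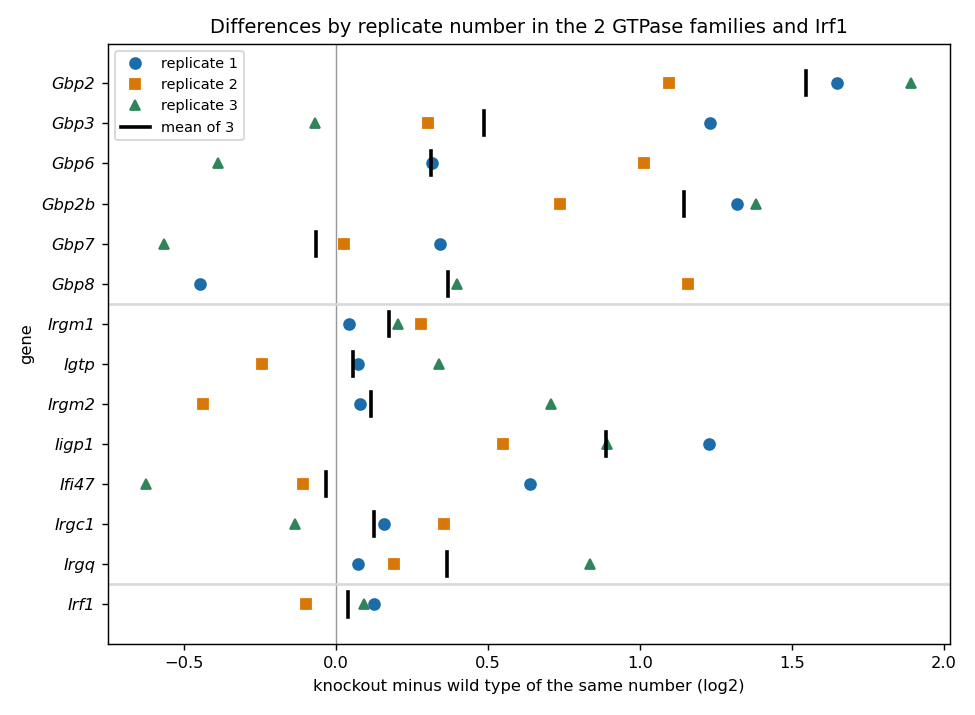
Knockout minus wild type of the same replicate number, in log2 units, for the measured guanylate-binding genes (top), immunity-related GTPase genes (middle) and Irf1 (bottom). Coloured points are the 3 numbers and black bars their mean. All 3 points of Gbp2, Gbp2b and Iigp1 lie above 0, as do those of Irgm1 and Irgq with smaller means, and the other genes have points on both sides of 0.

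Among the other measured genes of the 2 families, Gbp2b and Iigp1 read higher in all knockout arrays, as did 3.45% of all genes. The rest did not. Gbp2b, the neighbour of Gbp2 on chromosome 3, read 6.70, 6.69 and 5.58 in wild-type arrays and 8.02, 7.43 and 6.96 in knockout arrays. The groups did not overlap, but the difference of 1.15 (SE 0.39) missed the threshold in limma (adjusted p = 1.00, and 0.0654 with the replicate number as a block). Gbp2 and Gbp2b are close relatives, and how far the probe sets of each also bind the transcript of the other was not tested. Gbp7, in the same cluster, read at -0.07 relative to wild type and Gbp8 at 0.37, both with means below the median level. Among the immunity-related GTPases Irgm2, next to Igtp, differed by 0.12, Irgq by 0.37 and Irgc1 by 0.13, with limma adjusted p of 1.00 each. Ifi47, named after its values were seen and with a mean below the median level, differed by -0.03. By number it differed by 0.64, -0.11 and -0.62. Iigp1, which was chosen after its values were seen, read 4.07, 4.61 and 4.34 in wild-type arrays and 5.30, 5.16 and 5.23 in knockout arrays. Its mean, too, lay below the median level. Its groups did not overlap, and its difference of 0.89 did not pass (limma, adjusted p = 0.399, blocked 0.116).

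The genes whose values most resembled those of Gbp2 over the 6 arrays were sought among 1700 genes above the median level with an SD of at least 0.5. The 5 with the highest Pearson correlation were Gbp2b (0.99), Crlf2 (0.99), Zfp42 (0.98), Mt2 (0.98) and Nova1 (0.98). Crlf2 encodes a cytokine receptor chain, Zfp42 a pluripotency-associated zinc finger protein, Mt2 a metallothionein and Nova1 an RNA-binding protein. With the second Gbp2 probe set the same 5 genes gave between 0.92 and 0.98. The correlations are over 6 arrays that share genotype and replicate number, and the likeness includes the difference between genotypes. All 5 were lowest in wild-type replicate 3. Mt2 passed the test with the block (limma, adjusted p = 0.0194, unblocked 0.703), and the other 4 did not in either fit. Mt2 and Zfp42 lie on chromosome 8, where 85.6% of genes above the median level were higher in knockout arrays, with a median of 0.26. The part of that shift in their likeness to Gbp2 was not tested.

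**Figure D4:**
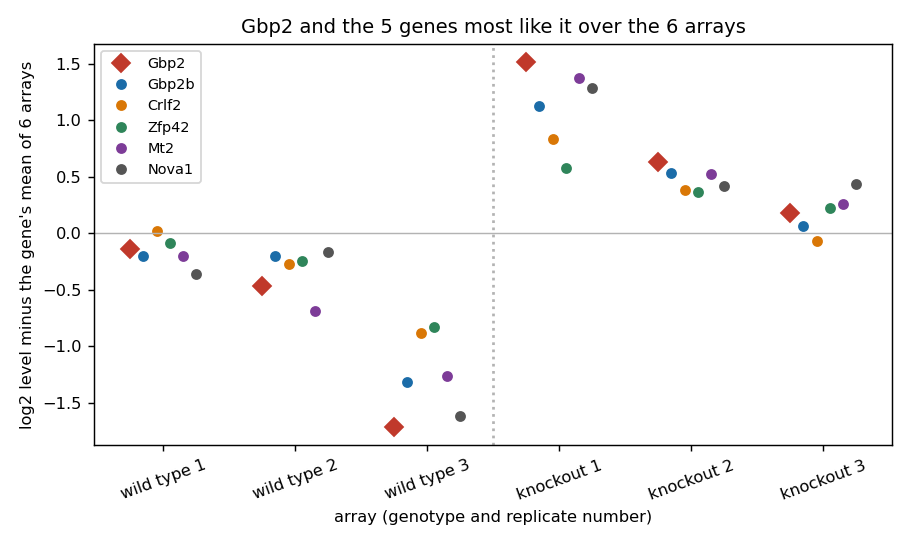
Log2 level minus the gene's own mean over the 6 arrays, for Gbp2 (diamonds) and the 5 genes with the highest correlation with it (circles). The horizontal axis gives genotype and replicate number. All 6 genes are lowest in wild-type replicate 3 and highest in knockout replicate 1.

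The median difference of the rest of the interferon pathway lay close to that of all genes. Of 142 listed genes other than the 6, 119 were measured, and their median difference was -0.01, as it was over all genes. By number the pathway medians were 0.09, 0.03 and -0.10, of both signs, beside -0.001, 0.004 and -0.017 over all genes. Of these 119 genes 56 were higher and 63 lower in knockout arrays. In limma 0 passed in either direction, and 8 had an unadjusted p under 0.05, 7 higher and 1 lower. Over all genes 4 passed, all lower (0.022%, with 0.0% higher). Of all 18193 genes 701 (3.85%) had an unadjusted p under 0.05 in limma, 292 higher and 409 lower. With the replicate number as a block 0 of the 119 passed, and 19 had an unadjusted p under 0.05, 14 higher and 5 lower. The block called 62 genes over the array (0.341%), 20 higher (0.11%) and 42 lower (0.231%). It gave 1626 of all genes (8.94%) an unadjusted p under 0.05, 705 higher and 921 lower. The groups did not overlap in 9 genes with the knockout higher, 7.56%, and in 4 with the knockout lower, 3.36%, where the shares over all genes were 3.45% and 4.47%. Of the 119 genes 76 had means above the median level, with a median difference of 0.038 beside 0.004 over all genes above it. Among these 76 the groups did not overlap in 10.5% with the knockout higher and 2.63% with it lower. Over all genes above the median level the shares were 3.74% and 4.00%. Without both arrays of number 3 the pathway median was 0.07, beside 0.006 over all genes, and limma called 0 pathway genes without the block. With the block, on 2 arrays per genotype, it then called 9 of them (7.56%), 8 higher and 1 lower. Over the array the same fit called 815 genes (4.48%), 243 higher (1.34%) and 572 lower (3.14%).

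The listed ligands are interferons and the cytokines encoded by Il6 and Tnf, and apart from Tnf their genes read low in both genotypes. Of the 7 measured ligand genes, Ifnb1 and Ifng among them, 6 had means below the median level, and Tnf, the other one, differed by -0.09. All 7 had lower means in knockout arrays, with a median of -0.09. By number the ligand medians were -0.01, 0.14 and -0.51, so the lower means came largely from number 3. The lower quartile of wild-type replicate 3 was 4.37, against 4.22 to 4.28 in the other arrays. Ifna1 and Ifna2, chosen after their values were seen, were lower in every knockout array, by -0.43 and -0.29. They are 28.6% of the ligands, where 4.47% of all genes were lower in this way. Neither passed (limma, adjusted p = 1.00, blocked 0.497 and 0.686). For Ifna1, whose probe set is of the class that can bind several transcripts, the groups nearly met. Knockout replicate 1 read 5.061 and wild-type replicate 2 read 5.063. Ifna2 lay below the lower quartile of every array. The receptor genes read above the median level apart from Ifnlr1, the interferon lambda receptor. Ifngr1, the ligand-binding chain of the interferon gamma receptor, differed by 0.23 and Ifngr2, its signalling chain, by -0.14. The shared chain Il10rb differed by -0.18. Among the kinases and STATs, Jak2, which serves the interferon gamma receptor, read higher in all knockout arrays by 0.60 (9.37 ± 0.56 to 9.97 ± 0.18; SD, n = 3; limma, adjusted p = 1.00). Jak1 differed by -0.14 and Stat3 by 0.04. Of the other IRF genes, Irf9 differed by 0.34 and Irf5 by 0.03. Irf2bp2, a corepressor of IRF2, differed by 1.17 (limma, adjusted p = 1.00, blocked 0.157) and lies on chromosome 8, where genes above the median level had a median difference of 0.26.

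The antiviral genes split both ways, with 18 of 39 higher and a median of -0.01. Ifih1, a sensor of viral RNA, differed by 0.89 with overlapping groups. Nmi, a partner of STAT proteins, and Ifitm3, which blocks viral entry, were higher in all knockout arrays by 0.78 and 0.62. For these 3 the limma adjusted p was 1.00, and 0.269, 0.107 and 0.210 with the block. Ifitm1, chosen after its values were seen, was lower in all knockout arrays, by -0.36, although it lies on chromosome 7 with Ifitm3. Of the 39 genes 24 had means above the median level. Among well-known interferon targets, also picked after their values were seen, Ifit2, Oas1a and Usp18 were above it and differed by 0.18, -0.17 and 0.09, while Ifit1, Mx1 and Oas3 were below it and differed by -0.11, -0.11 and -0.02.

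Of 17 antigen presentation genes 10 were higher, with a median of 0.07. Psmb10, an immunoproteasome subunit on chromosome 8, read higher in all knockout arrays by 0.80, and Erap1, which trims peptides for class I molecules, by 0.75. Tapbp, which loads peptides, differed by 0.59. Their limma adjusted p was 0.948, 0.795 and 1.00, and 0.217, 0.123 and 0.271 with the block. The 5 chemokine genes all had means below the median level. Among 9 negative regulators Socs2 differed by 0.29, Ptpn6 by -0.18 and Cish by -0.11. Of 14 sensors and NF-κB genes, Nfkbia, the inhibitor that NF-κB itself induces, was higher in all knockout arrays by 0.60, while Tnfaip3 differed by 0.51 and Mavs by -0.45. None of these 6 passed in limma, with adjusted p of 1.00 each and blocked values from 0.181 to 0.947.

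**Figure D5:**
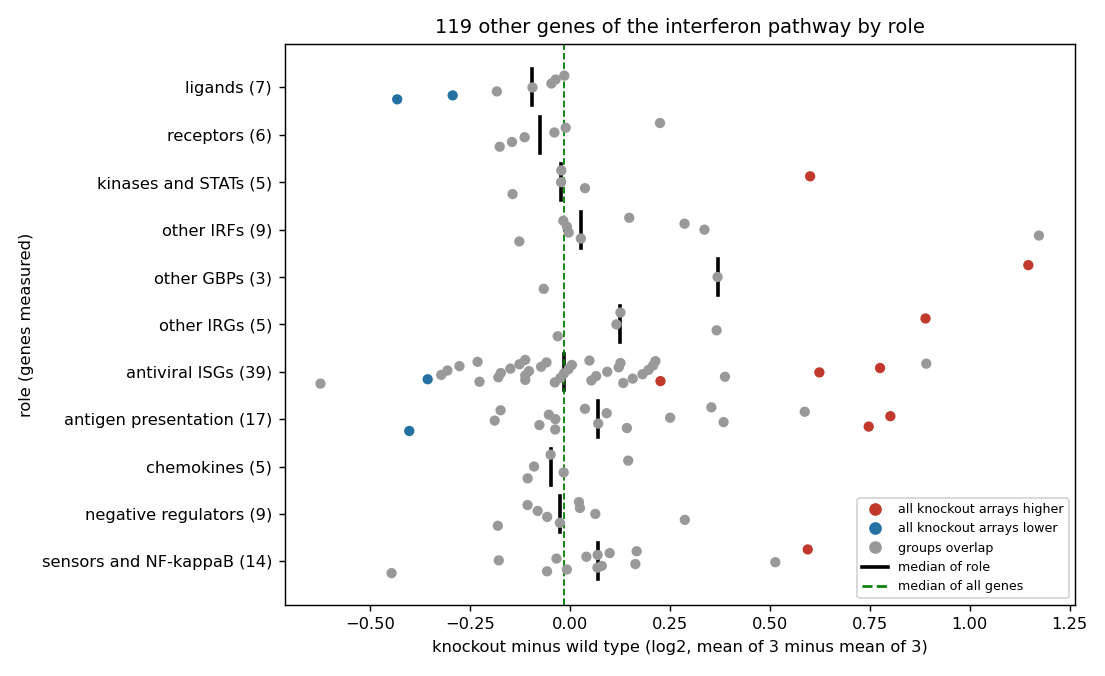
Knockout minus wild type in log2 units for 119 other genes of the interferon pathway, grouped by role, with the number measured in brackets. Black bars are the role's median, the dashed line is the median of all genes (-0.01), red points are genes whose knockout arrays all read higher and blue points those whose knockout arrays all read lower. Most points lie close to the dashed line, and 9 are red and 4 blue.

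Markers of cells that could carry interferon genes were set beside these values. Of 14 macrophage and leukocyte markers 3 (Csf1r, Cd68 and Laptm5) lay above the median level, and the list's mean log2 level was 5.07 to 5.26 in wild-type and 5.03 to 5.18 in knockout arrays. Ptprc, Itgam, Aif1 and Cybb lay in every array below that array's lower quartile, while Csf1r read 6.90 to 7.63. Itgam was the 1 marker of this list that read higher in all knockout arrays, by 0.24, as did 3.45% of all genes. The summed linear level of the list was 654 to 740 in wild-type and 599 to 658 in knockout arrays. The 12 fibroblast markers had mean levels of 5.97 to 6.60 and 5.85 to 6.64 and the 8 endothelial markers 5.81 to 6.04 and 5.31 to 6.52. The 9 visceral endoderm markers all had lower means in knockout arrays, and none of them was called by limma in either fit. Their mean level was 5.72 to 5.87 against 5.31 to 5.60, and 3 of the 9 lay above the median level. Rbp4 and Sox17 differed most, by -0.92 and -0.74, and the others by between -0.20 (Ttr) and -0.07 (Apoa4). Rbp4, Sox17 and Amn were lower in the knockout array at every number, and the other markers were not. Afp and Cubn, both below the median level, were lower in the knockout only at number 3. Afp read 4.74, 4.69 and 5.52 in wild-type arrays and 4.98, 5.07 and 4.62 in knockout arrays. The 8 pluripotency markers had mean levels of 8.18 to 8.39 and 8.34 to 8.95, and 5 of them had higher means in knockout arrays. Esrrb, Tdgf1 and Utf1 differed by -0.29, -0.14 and -0.13. Pou5f1 and Nanog were highest in knockout replicate 3, at 10.82 and 9.26, and their groups overlapped. Zfp42 and Dppa5a, 2 of the 8, read higher in all knockout arrays, as did 3.45% of all genes. Dppa5a rose by 1.20 with the block (limma, adjusted p = 0.0315, unblocked 0.148), and Zfp42, which differed by 0.78 (blocked 0.122), is among the genes most like Gbp2. Their part in the Gbp2 values was not tested. In bulk RNA a change in the number of cells of a type and a change in RNA per cell cannot be told apart.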

How the data were processed

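The 6 Affymetrix arrays hold 45101 probe sets, 64 of them controls. The deposited values are log2 expression levels; the submitters' processing notes give RMA and affy, with no version. RMA commonly sets all arrays to a common distribution and compresses differences between dim probe sets. Probe sets were named from the 2016 platform annotation, updated through RefSeq identifiers: 34945 had 1 gene, 932 several and 9160 none. The brightest probe set of each gene, by its mean over the arrays, was used, which gave 18193 genes.

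The test between genotypes was limma 3.58.1 (R 4.3.3; lmFit, eBayes, Benjamini-Hochberg over all genes, threshold 0.05), checked on simulated data. Another fit added the replicate number as a block, since the correlations of 0.699, 0.354 and 0.448 pass 0.1; what the numbers mark is not given in the sources used here. The pathway and marker lists came from textbook knowledge, and 23 listed pathway genes were not analysed here. The members and lists were chosen with earlier results of these data known. Named pathway genes were, per role, up to 3 genes past the threshold and otherwise with the largest difference above the median level; others named are levels of typical members or are marked as chosen later. Alternatives were the block, each array left out, dim probe sets removed, repeated quantile normalisation and subtracted medians. Further ones were trended robust variance, array weights, averaged probe sets, and only probe sets without x, s or a in their name. Those that left out both arrays of a number were added after seeing the data. Plots were made in matplotlib 3.10.9. The number of arrays limits the precision, and p-values measure the spread between these samples.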

Additional observations from a re-analysis of the deposited data

How the results depend on the processing

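The Gbp2 difference stayed above 0 in all 18 alternatives, between 1.08 and 1.86, and that of Gbp3 in all 17 it had, between 0.12 and 0.79. The differences of Gbp6, Irf1, Irgm1 and Igtp took both signs, with ranges of -0.06 to 0.67, -0.06 to 0.19, -0.13 to 0.43 and -0.10 to 0.21. Gbp6 has no value without dim probe sets. Gbp3 and Irf1 have none once probe sets with x, s or a in their name are removed. Under the replicate block 62 genes were called over the array instead of 4, and 68 with array weights. With 1 array left out the count ran from 1 to 6. It was 1 without both arrays of number 1 or of number 2, and 2 without those of number 3. The pathway count stayed 0 in all alternatives but 1. With the block and without both arrays of number 3, 9 pathway genes were called, 8 higher (Gbp2b, Iigp1, Erap1, Psmb10, Ifitm3, Nmi, Nfkbia and Irf2bp2) and Trim25 lower, 7.56% of the list. Over the array 815 genes were called, 4.48%, with 243 higher and 572 lower. That fit leaves 2 arrays per genotype, and the cause was not tested. The pathway median stayed between -0.04 and 0.07. The replicate block changed no call among the pathway genes.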

Other observations

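Promoters with an ISRE core were also looked at over the whole array. Of 14447 measured genes with a window other than the 6 described above, 520 held the core, and their median difference was 0.0046 beside -0.013 in the others. The groups did not overlap with the knockout higher in 16 of the 520, 3.08%, where 3.45% of all genes did. With the replicate number as a block limma called 3 of the 520, where it called 0.341% of all genes. They are named here after their calls were seen. Tgfbi, a matrix protein gene, rose by 1.55 (blocked adjusted p = 0.0251), while Capn6 and the embryonic globin gene Hbb-y fell by 2.09 and 1.71 (blocked adjusted p = 0.0319 and 0.0251). Without the block limma called 0 of the 520, and 16 had an unadjusted p under 0.05, beside 3.85% of all genes. In the interferon pathway list 26 of 92 genes with a window held the core, 28.3%. Their median difference was 0.025 beside -0.005 in the listed genes without it. In limma 0 of these 26 passed in either fit, with 3 at an unadjusted p under 0.05 without the block and 6 with it, where 8.94% of all genes had one with the block.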
